A study of Mus musculus with 18 samples.

Results

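Myelin is made in the brain by oligodendrocytes, glial cells that wrap axons with layers of membrane rich in lipid and in a small set of dedicated proteins. They arise from precursor cells that carry Pdgfra and Cspg4, pass through a short premyelinating stage, and then switch on the myelin genes under transcription factors such as Sox10, Olig2 and Myrf. Here 37 genes of this lineage were followed through the BNST (bed nucleus of the stria terminalis, a limbic forebrain nucleus) and the mPFC (medial prefrontal cortex) of mice from 2 pain models and of controls. The genes were taken by symbol from a list of oligodendrocyte lineage genes. All 37 matched 1 identifier each among the 55401 in the count table, and all 37 passed the filter on low counts that kept 18994 genes.

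The study asked how persistent and acute pain change transcription in these regions. CFA-injected mice (complete Freund's adjuvant, the persistent pain model) were killed at 72 h, formalin-injected mice (the acute pain model) at 24 h, and control mice received neither agent. Every mouse was an adult male of the C57BL/6 strain with wild-type genotype, and polyA RNA of the dissected BNST and mPFC was sequenced from 3 mice per group, giving 18 libraries in 6 groups. The agent and the time of collection differed together, so CFA and formalin cannot be separated from 72 h and 24 h, and no vehicle group was analysed here. Libraries of a group came from separate brains.

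The libraries held 14781315 to 23408503 counts, and the 37 genes took 0.954% to 1.36% of them in BNST libraries of injected mice, 0.744% to 1.08% in BNST controls and 0.207% to 0.441% in the mPFC. Some libraries stood apart. Choroid plexus genes summed to 271, 18388 and 223 CPM (counts scaled to a common library size with TMM factors) in BNST CFA replicates 1 to 3, against 64 to 808 CPM in BNST controls, and BNST CFA replicate 2 was thus the extreme. Among the controls, BNST control replicate 1 was the highest of its group for 32 of the 37 genes and mPFC control replicate 3 for 37 of 37, while mPFC CFA replicate 2 was the lowest of its group for 35. In bulk tissue, fewer oligodendrocytes and less RNA per oligodendrocyte cannot be told apart, and the amount of white matter taken with each punch was not measured.

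Every stage of the lineage was detected in both regions, with higher levels in the BNST for most genes. In control mice Mbp, the abundant basic protein that compacts the myelin membrane, had the highest level per transcript length in both regions, at 1615 ± 250.4 TPM (the same counts scaled by exon length, for comparing genes) in the BNST and 664 ± 184 TPM in the mPFC (SD, n = 3 each). In the BNST it stood above the next gene without overlap, and Mobp, another basic myelin protein, followed at 871 ± 299 TPM, overlapping Cnp (580 ± 168 TPM), a phosphodiesterase of uncompacted myelin. At the low end of the BNST order stood Cspg4, the NG2 proteoglycan of precursors (11.4 ± 2.01 TPM), and Enpp6, a choline phosphodiesterase of newly forming oligodendrocytes (11.0 ± 0.497 TPM), whose ranges overlapped. Neighbours in the order mostly overlapped, as the plot of TPM in control mice shows.

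**Figure D1:**
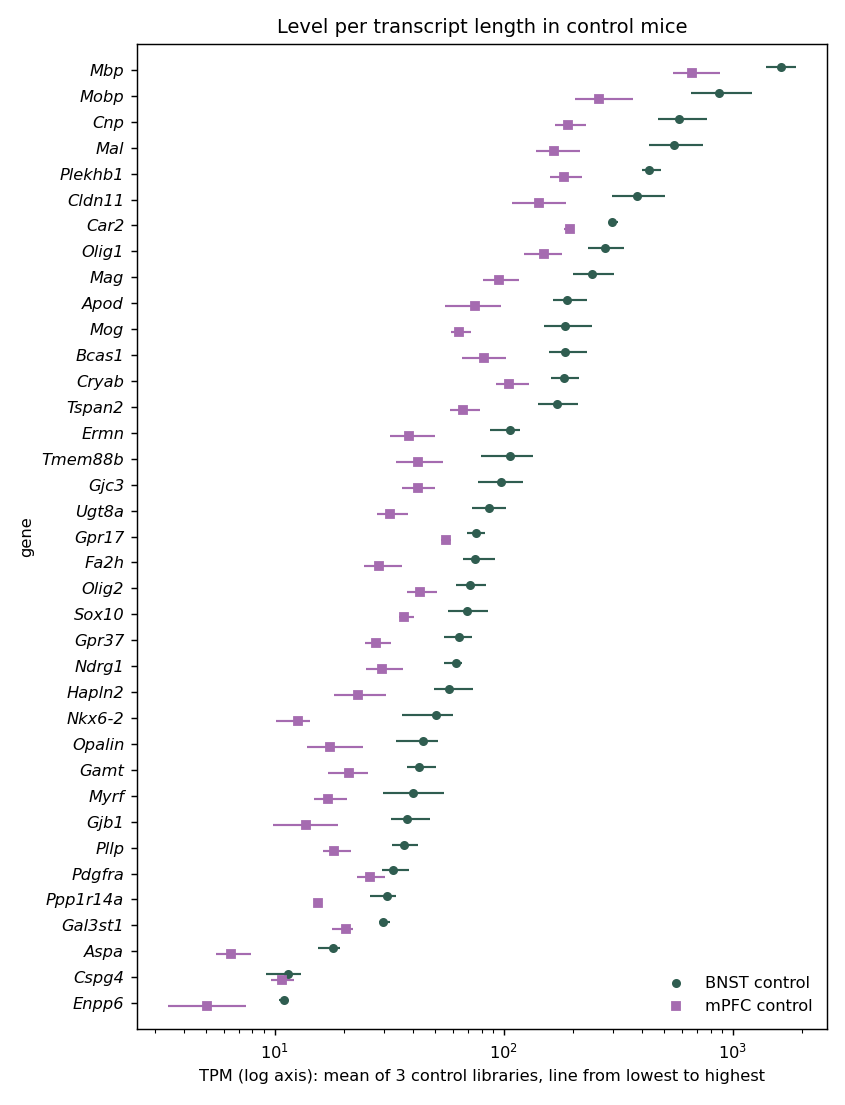
TPM on a log axis for each of the 37 genes in control mice, with the BNST as circles and the mPFC as squares, each the mean of 3 libraries with a line from the lowest to the highest. The circles lie to the right of the squares for most genes, and the ranges touch or overlap for Pdgfra and Cspg4, the precursor genes.

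Between the regions of control mice, 33 of the 37 genes were called higher in the BNST and none lower, where called means that the edgeR test gave an adjusted p under 0.05 with a log2 fold change beyond 0.5 in size. Over all genes tested, 26.6% were called in either direction in that comparison, 14.7% higher and 12% lower. The median fold, BNST over mPFC, was 2.26, and the largest was 3.83, for Nkx6-2, a homeodomain factor of oligodendrocytes. All 16 genes of myelin proteins were among the 33, with log2 fold changes of 0.94 to 1.68. The 4 that were not called were Cspg4 (log2 fold change 0.00, adjusted p = 0.994), Pdgfra (0.26, adjusted p = 0.043), Gpr17, a receptor of committed precursors (0.37, adjusted p = 0.0316), and Gal3st1, the enzyme that makes sulfatide (0.48, adjusted p = 0.016). The last 3 missed only the fold minimum. In 35 of the 37 every BNST control was above every mPFC control, where 25.3% of all genes were and 23.2% were below, and the libraries of the regions overlapped for the precursor genes Pdgfra and Cspg4 alone. Control animals 2 and 4 gave libraries of both regions. BNST control replicates 1 and 2 were sequenced in lane 1 and the mPFC controls in lane 2. With the animal as a block, 28 of the 33 kept their call, and Car2, Cryab, Enpp6, Olig2 and Opalin lost it.

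**Figure D2:**
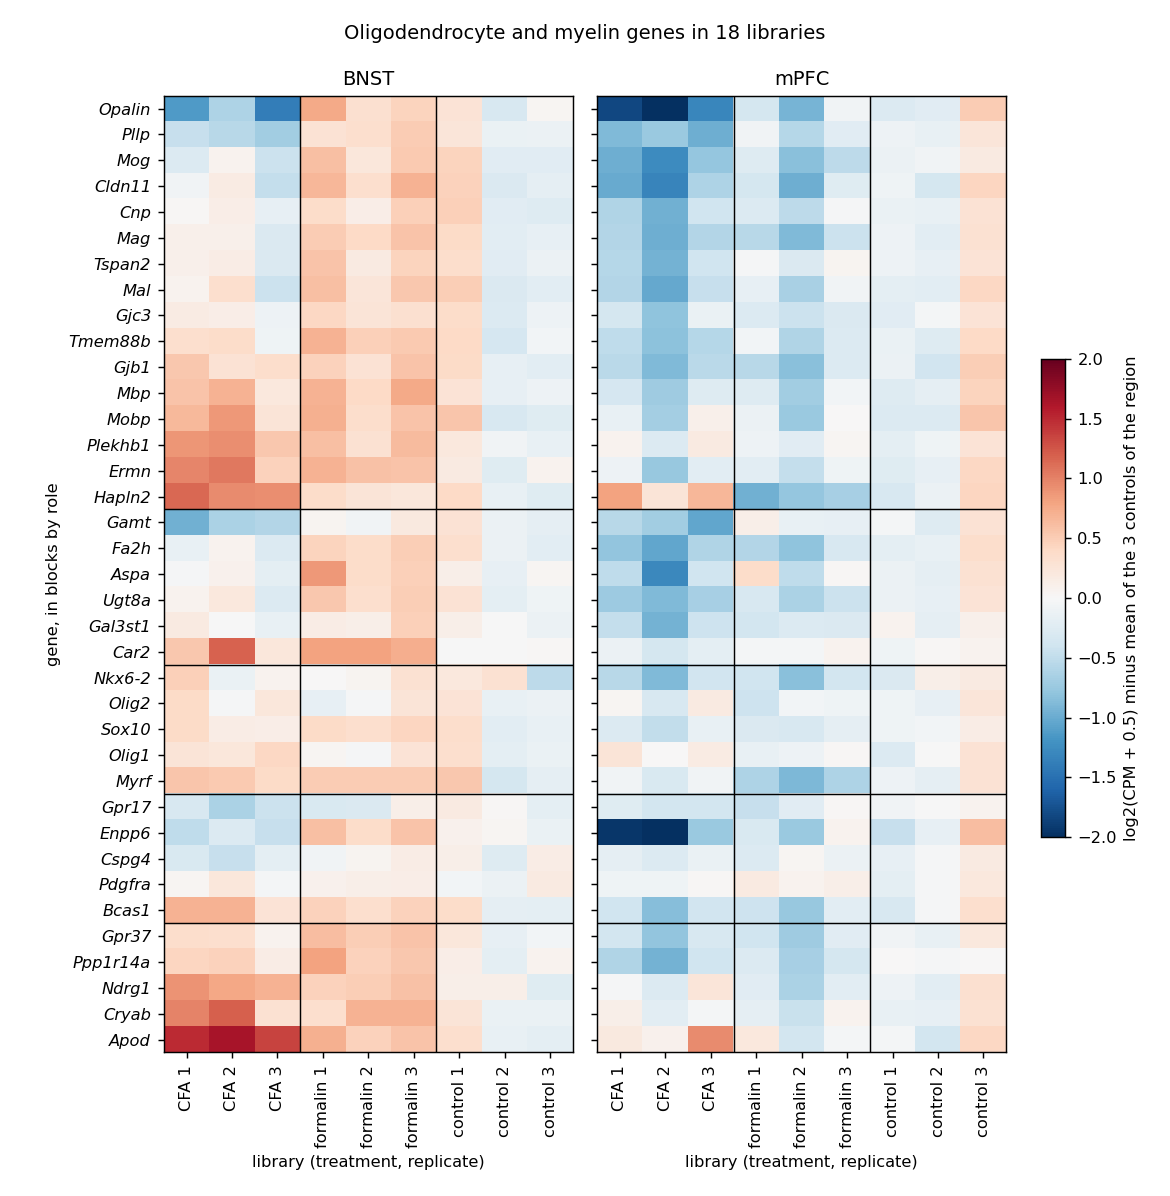
Each cell gives log2(CPM + 0.5) of a gene in a library minus the mean of the 3 controls of that region, with genes in blocks by role and, from left to right, CFA, formalin and control libraries, and the darkest shades also stand for values beyond the colour scale. Most cells are red in the formalin columns of the BNST and blue in the CFA columns of the mPFC, the CFA columns of the BNST hold both colours, and mPFC control 3 is redder than the other controls.

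After CFA, lineage genes of the BNST were called in both directions, and only the higher calls stood well above their share over all genes. Of the 37, 7 were called higher and 3 lower than in controls, 10 in all, where 11.9% of all genes tested were called, 4.89% higher and 7.06% lower. The median log2 fold change of the 37 was 0.12, against 0.01 over all genes. An unadjusted p under 0.05 was found for 16 of the 37 and for 36.5% of all genes. In 8 genes every CFA library was above every control library, where 15.4% of all genes were, and in 5 every CFA library was below, where 16.1% were. The lower calls and the genes below every control were near their shares, so no fall of the lineage is read from them. Across the 9 BNST libraries, the 7 genes called higher had correlations of 0.18 (Hapln2) to 0.67 (Car2) with the mean of mature oligodendrocyte genes. The highest of the 37 was 0.97, for Tmem88b. The CFA libraries are among the 9, so these values also hold the CFA change. No rise of the whole lineage is read from the 7 calls.

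Among the myelin and axon-contact proteins, Hapln2 rose most in the BNST. It encodes a link protein that ties hyaluronan to proteoglycans at the nodes of Ranvier. Hapln2 had 69.9, 60.8 and 60.6 CPM in CFA mice against 41.6, 28.3 and 26.4 CPM in controls, a log2 fold change of 0.99 ± 0.19 (SE, adjusted p = 0.00163). Every CFA library was above every control library. Ermn, which encodes ermin, a cytoskeletal protein of late oligodendrocytes, had 177, 187 and 125 CPM in CFA mice against 102, 75.9 and 94.7 CPM in controls (0.85 ± 0.20, adjusted p = 0.00759). Plekhb1, a membrane protein with a pleckstrin homology domain, had 693, 710.1 and 546 CPM in CFA mice against 432, 356 and 338 CPM in controls (0.79 ± 0.15, adjusted p = 0.00126). Neither gene overlapped between the groups.

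The same was seen for 3 genes of lipid transport and stress. Apod encodes apolipoprotein D, a lipid-carrying lipocalin, and gave the largest rise of the 37. It had 316, 353 and 287 CPM in the CFA libraries of the BNST and 142, 102 and 98.6 CPM in the control libraries (log2 fold change 1.48 ± 0.24, adjusted p = 0.000692). Ndrg1, a stress-responsive gene whose loss causes a demyelinating neuropathy in people, had 179, 164 and 155 CPM in CFA mice against 104, 104 and 81.0 CPM in controls (0.79 ± 0.15, adjusted p = 0.00151). Cryab, a small heat shock protein, had 125, 145 and 77.7 CPM in CFA mice against 75.5, 57.3 and 57.0 CPM in controls (0.87 ± 0.21, adjusted p = 0.00902), and its lowest CFA library lay just above its highest control. Of the Cryab exons, 17.0% were shared with Hspb2 on the opposite strand, and the strand setting of the counting is not given in the sources used here.

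Car2, the cytosolic carbonic anhydrase, had 245, 382 and 196 CPM in CFA libraries of the BNST against 167, 168 and 170.3 CPM in controls (0.71 ± 0.16, adjusted p = 0.00502). Its highest value was in BNST CFA replicate 2, the library with the most choroid plexus RNA. Without that library the log2 fold change was 0.39, under the fold minimum, with an adjusted p of 0.00476, and 9 of the 37 genes were called in all.

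In the other direction, 3 genes were called lower in the BNST after CFA, a count near the share over all genes. Opalin, a transmembrane glycoprotein of oligodendrocyte processes, had 13.4, 19.4 and 11.2 CPM in CFA mice against 36.5, 23.9 and 31.0 CPM in controls, a log2 fold change of −1.06 ± 0.29 (adjusted p = 0.0174). Pllp, plasmolipin, a tetraspan proteolipid of myelin, had 12.7, 11.9 and 10.8 CPM in CFA mice against 21.0, 16.2 and 16.3 CPM in controls (−0.60 ± 0.15, adjusted p = 0.00789). Gamt, the enzyme of the last step of creatine synthesis, had 7.06, 8.97 and 9.30 CPM in CFA mice against 17.5, 13.1 and 12.6 CPM in controls (−0.77 ± 0.18, adjusted p = 0.00504). The CFA libraries were below every control library for each of these genes.

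The sequencing lane moved with these groups: BNST control replicates 1 and 2 were in lane 1, and BNST control replicate 3 and the 3 CFA libraries in lane 2. With the lane 2 libraries only, which leave 1 BNST control, 6 genes were called higher and none lower: Hapln2, Plekhb1, Cryab, Ndrg1 and Apod, and Myrf (0.68, adjusted p = 0.00835). That fit called 7.4% of all genes higher and 7.92% lower. In that fit the log2 fold changes were −1.09 for Opalin (adjusted p = 0.0776), −0.48 for Pllp (adjusted p = 0.104), −0.58 for Gamt (adjusted p = 0.0977), 0.78 for Ermn (adjusted p = 0.11) and 0.68 for Car2 (adjusted p = 0.09). Opalin also lost its call without BNST control replicate 1 (adjusted p = 0.0591), BNST CFA replicate 1 (0.0555) or BNST CFA replicate 3 (0.0587), and Pllp fell short of the fold minimum without BNST control replicate 1, at −0.47.

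Mbp, Mag and Mog, which mark compact and mature myelin, were not called in the BNST after CFA. Mbp had 4712, 5142 and 3682 CPM in CFA mice against 3821, 2832 and 2963 CPM in controls (0.49 ± 0.20, adjusted p = 0.0909). Mag, an adhesion molecule of the innermost myelin layer, had 243, 244 and 186 CPM in CFA mice against 295, 196 and 203 CPM in controls (−0.04 ± 0.18, adjusted p = 0.89). Mog, a glycoprotein of the outermost layer, had 59.3, 75.5 and 53.7 CPM in CFA mice against 98.8, 61.4 and 61.9 CPM in controls (−0.24 ± 0.20, adjusted p = 0.416). For all 3 the groups overlapped.

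**Figure D3:**
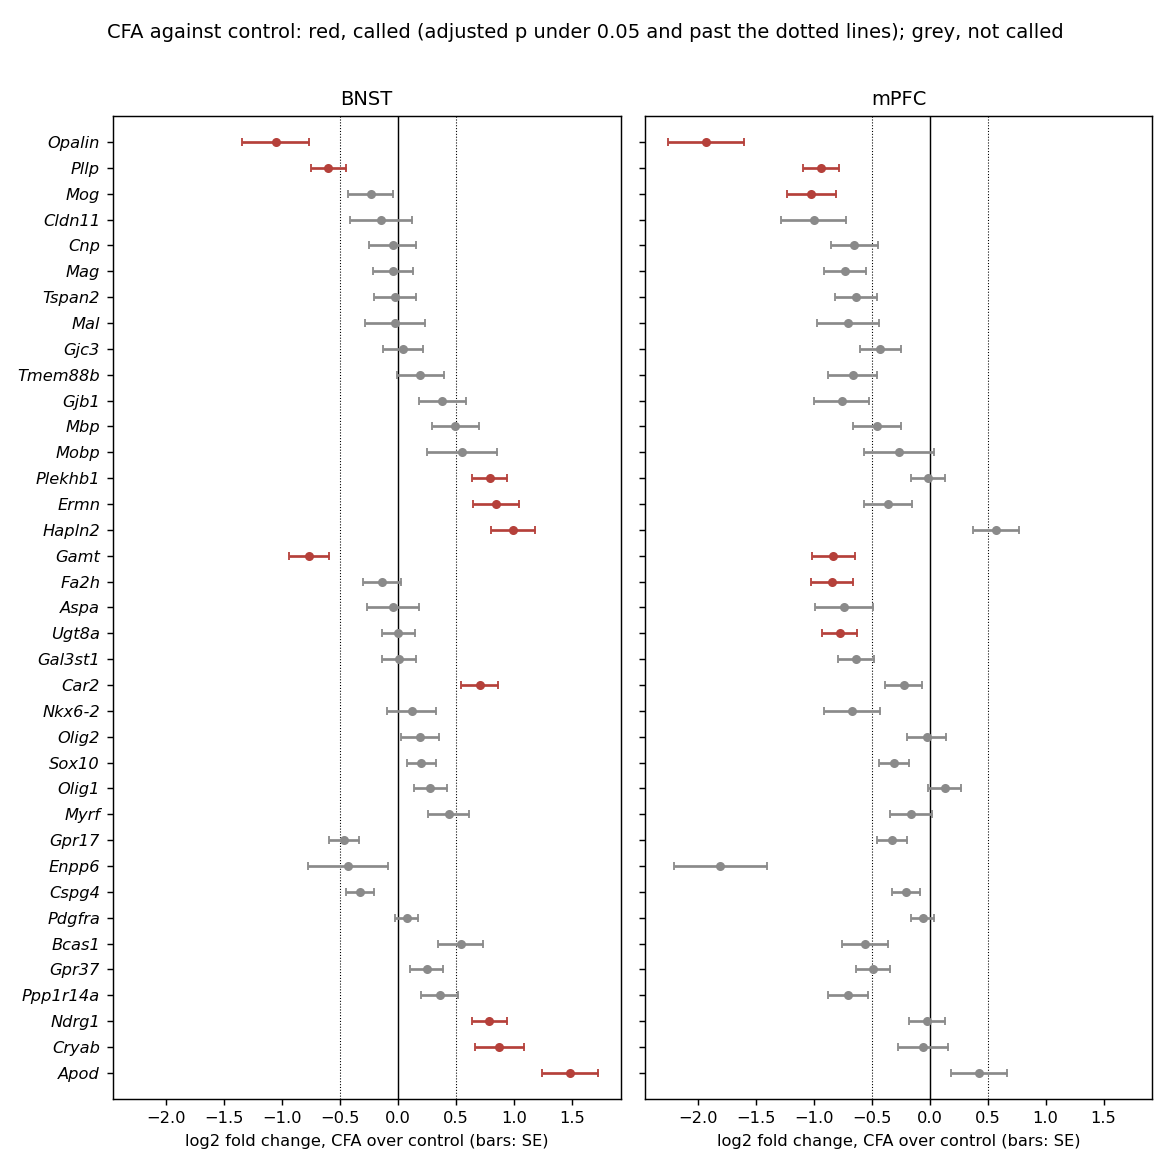
Log2 fold change of each of the 37 genes, CFA over control, with its SE, in the BNST (left) and the mPFC (right), ordered by role as in the heat map. Called genes are red: 10 in the BNST on both sides of 0 and 6 in the mPFC, all below 0.

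In the mPFC the mean of the CFA libraries was lower for almost the whole lineage. Of the 37 genes, 34 had a lower mean than in controls, 6 were called lower and none higher, where 0.632% of all genes tested were called in that comparison, 0.337% higher and 0.295% lower. The median log2 fold change of the 37 was −0.56, against 0.00 over all genes, and 25 genes had an unadjusted p under 0.05, 24 of them lower, where 13.8% of all genes had one in either direction. In 24 of the 37 every CFA library was below every control library, a pattern that 12.3% of all genes showed, and in none were they above, as in 13.4% of all genes. DESeq2 called 14 genes lower, where it called 0.898% of the genes it gave an adjusted p, and limma-voom 4, where it called 0.253% of all genes lower. The summed level of the 37 overlapped, at 2192 to 3032 CPM in CFA libraries against 2969 to 4463 CPM in controls. That of 24 genes of mature oligodendrocytes did not, at 1674 to 2394.8 CPM in CFA libraries against 2397.9 to 3717 CPM in controls. Many of the 37 moved together, so these counts are not independent results. Across the 9 mPFC libraries, the correlation with the mean of the other mature genes ran from −0.06 (Hapln2) to 0.97 (Mal).

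The 6 called genes were structural proteins and enzymes. Opalin had 3.07, 2.18 and 4.63 CPM in the CFA libraries of the mPFC against 9.93, 10.3 and 17.6 CPM in controls, and its log2 fold change of −1.93 ± 0.33 was the largest of the 37 (adjusted p = 0.0138). Mog had 13.2, 10.8 and 15.3 CPM in CFA mice against 24.4, 25.2 and 30.1 CPM in controls (−1.02 ± 0.22, adjusted p = 0.0416). Pllp had 4.79, 5.36 and 4.44 CPM in CFA mice against 8.62, 8.35 and 11.0 CPM in controls (−0.94 ± 0.16, adjusted p = 0.0081). No library of these genes crossed between the groups.

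The enzymes called in the mPFC serve lipid and creatine synthesis. Fa2h hydroxylates the fatty acids of myelin galactolipids and had 11.8, 9.86 and 13.5 CPM in CFA mice against 17.97, 18.6 and 26.7 CPM in controls (−0.85 ± 0.18, adjusted p = 0.0416). Ugt8a adds galactose to ceramide to form galactocerebroside, and had 21.1, 18.9 and 22.1 CPM in CFA mice against 32.5, 31.5 and 42.6 CPM in controls (−0.78 ± 0.15, adjusted p = 0.0237). For Gamt the values were 4.85, 4.37 and 3.35 CPM in CFA mice and 7.20, 6.12 and 9.10 CPM in controls (−0.83 ± 0.19, adjusted p = 0.0461). Mag (62.4, 47.4 and 62.4 CPM in CFA mice against 87.7, 81.7 and 117 CPM in controls) was also below every control, with an adjusted p of 0.078, and Mbp (1073, 828 and 1122 CPM in CFA mice against 1129, 1188 and 1826 CPM in controls) had an adjusted p of 0.335.

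These 6 calls rested on few libraries. Leaving out mPFC control replicate 3, the highest control for all 37 genes, or mPFC CFA replicate 1 left 0 called. Without mPFC CFA replicate 2, 1 gene was called. Without mPFC CFA replicate 3, 2 were called, and of the 6 only Opalin was among them. Omitting mPFC control replicate 1, mPFC control replicate 2 or BNST formalin replicate 3 left 3 each. The log2 fold change of Opalin stayed between −2.25 and −1.61 over all 18 omissions, and its call was lost without mPFC control replicate 3 (adjusted p = 0.0594), mPFC CFA replicate 1 (0.0891) or mPFC CFA replicate 2 (0.0765).

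Opalin, Pllp and Gamt were called lower after CFA in both regions, and no other of the 37 was. The share of all genes called lower in both was not computed, so this count is not set against a background. The mPFC call of Gamt was lost in 12 of the 18 omissions and by limma-voom (adjusted p = 0.0942). Of the 7 genes called higher in the BNST, 5 (Car2, Cryab, Ermn, Ndrg1 and Plekhb1) had a mean below that of controls in the mPFC, with log2 fold changes of −0.36 to −0.01 and adjusted p of 0.495 to 0.986. Hapln2 had 23.3, 15.7 and 21.1 CPM in the mPFC of CFA mice against 10.5, 12.1 and 17.9 CPM in controls (0.57 ± 0.20, adjusted p = 0.205). For Apod the mPFC values were 52.8, 48.8 and 88.5 CPM in CFA mice and 44.6, 35.4 and 61.5 CPM in controls (0.43 ± 0.24, adjusted p = 0.483), with overlap in both genes.

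**Figure D4:**
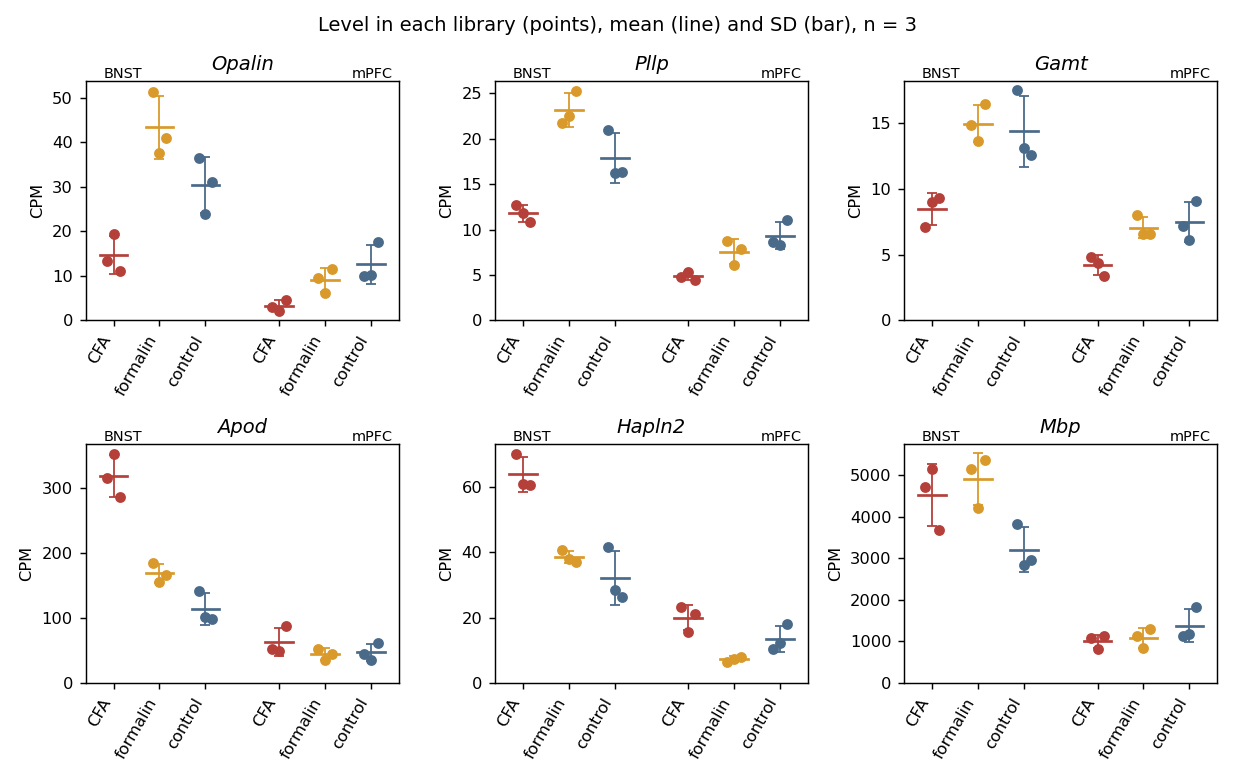
CPM of 6 genes in every library (points), with the mean (line) and SD (bar) of each group of 3, for CFA, formalin and control in the BNST and then the mPFC. Opalin, Pllp and Gamt are lowest in the CFA libraries of both regions, Apod and Hapln2 are highest in the CFA libraries of the BNST, and Mbp overlaps between CFA and control in the BNST.

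The start regions printed here, 250 bases before to 50 after each gene's start on the gene's own strand, belong to the 3 genes called lower in both regions and the 2 with the largest rise in the BNST, a choice made after their values were seen. The sequences are from RefSeq on GRCm38.p6, written 5′ to 3′. Capitals mark ACAAAG, a core site of SOX factors such as Sox10, and CAGCTG, an E-box of the kind bound by basic helix-loop-helix factors such as Olig2, each searched on both strands (the E-box reads the same on both, and the motifs do not overlap here). Opalin lies at chr19:41077064-41077363, Pllp at chr8:94696193-94696492, Gamt at chr10:80260963-80261262, Apod at chr16:31314759-31315058 and Hapln2 at chr3:88027462-88027761, all on the minus strand.
Opalin: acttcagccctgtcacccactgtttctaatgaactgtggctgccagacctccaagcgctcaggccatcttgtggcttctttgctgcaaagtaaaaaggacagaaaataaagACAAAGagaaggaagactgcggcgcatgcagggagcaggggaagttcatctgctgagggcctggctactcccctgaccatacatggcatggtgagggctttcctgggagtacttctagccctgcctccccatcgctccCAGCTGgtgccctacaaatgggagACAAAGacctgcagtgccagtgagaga
Pllp: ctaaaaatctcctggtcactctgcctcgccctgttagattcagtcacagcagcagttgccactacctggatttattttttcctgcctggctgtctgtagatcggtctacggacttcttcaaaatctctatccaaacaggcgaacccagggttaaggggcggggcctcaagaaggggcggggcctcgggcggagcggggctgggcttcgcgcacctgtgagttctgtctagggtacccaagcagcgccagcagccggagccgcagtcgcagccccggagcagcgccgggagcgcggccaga
Gamt: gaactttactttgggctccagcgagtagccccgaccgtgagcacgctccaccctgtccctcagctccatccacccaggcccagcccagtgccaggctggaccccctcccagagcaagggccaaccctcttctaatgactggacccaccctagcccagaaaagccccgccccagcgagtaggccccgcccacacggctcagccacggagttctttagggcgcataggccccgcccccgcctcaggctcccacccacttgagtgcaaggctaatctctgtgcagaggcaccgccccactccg
Apod: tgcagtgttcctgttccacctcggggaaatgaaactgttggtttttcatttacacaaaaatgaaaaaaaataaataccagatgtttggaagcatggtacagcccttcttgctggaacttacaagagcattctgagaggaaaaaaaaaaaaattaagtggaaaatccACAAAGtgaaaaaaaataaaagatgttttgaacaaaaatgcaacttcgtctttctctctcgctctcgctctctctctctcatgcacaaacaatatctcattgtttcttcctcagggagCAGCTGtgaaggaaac
Hapln2: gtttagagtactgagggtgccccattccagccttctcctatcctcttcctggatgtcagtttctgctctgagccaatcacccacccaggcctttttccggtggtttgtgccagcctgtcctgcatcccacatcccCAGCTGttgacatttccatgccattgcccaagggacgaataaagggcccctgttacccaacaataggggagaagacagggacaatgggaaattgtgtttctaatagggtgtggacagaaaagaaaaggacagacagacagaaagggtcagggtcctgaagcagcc
Opalin held 2 ACAAAG and 1 CAGCTG, Apod 1 of each and Hapln2 1 CAGCTG, while neither string occurred in these windows of Pllp and Gamt. Promoters were matched for 27 of the 37 genes, 36 start regions in all. ACAAAG occurred in 27.8% of the 36, against 18.7% of all 32851 start regions of that length, and CAGCTG in 11.1%, against 16.3%. Some genes gave several start regions, and overlapping ones of Mag held the same ACAAAG site, so the 36 are not independent. By gene, 8 of the 27 had ACAAAG and 4 had CAGCTG, and no share over all genes was computed for that count. A match is a string of letters, not a measured binding site.

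After formalin the mean of the BNST libraries was higher for nearly the whole lineage. Of the 37 genes, 36 had a higher mean than in controls, with a median log2 fold change of 0.43 against −0.04 over all genes, 20 had an unadjusted p under 0.05, all higher (19.6% of all genes had one in either direction), and 17 did not overlap, all above the controls, where 11.6% of all genes tested lay above without overlap and 10.8% below. The edgeR test called only Car2, where 0.3% of all genes tested were called, 0.195% higher and 0.105% lower. It had 294, 295 and 278 CPM in formalin mice against 167, 168 and 170.3 CPM in controls (0.78 ± 0.16, adjusted p = 0.0456). That call was lost in 14 of the 18 fits that left out 1 library, including those without any 1 BNST formalin library, and the log2 fold change stayed between 0.77 and 0.81.

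The values of the other genes named here show the size of the shift. Mbp had 5149, 4198 and 5349 CPM in formalin libraries of the BNST against 3821, 2832 and 2963 CPM in controls (0.61 ± 0.20, adjusted p = 0.14). For Mag the values were 323, 301 and 336 CPM after formalin and 295, 196 and 203 CPM in controls (0.47 ± 0.18, adjusted p = 0.171). Both were above every control. Opalin had 51.3, 37.7 and 41.0 CPM in formalin mice against 36.5, 23.9 and 31.0 CPM in controls (0.51 ± 0.28, adjusted p = 0.335), also without overlap. DESeq2 called 7 genes in this comparison, Car2, Ermn, Gpr37, Mbp, Ndrg1, Plekhb1 and Ppp1r14a, all higher, where it called 2.15% of the genes it gave an adjusted p. Car2 and Ppp1r14a were called by limma-voom, which called 0.195% of all genes higher. BNST formalin replicate 1 was in lane 3, the other formalin libraries in lane 2, and BNST control replicates 1 and 2 in lane 1. The edgeR call of Car2 was lost with the lane 2 libraries only, which leave 1 BNST control. Choroid plexus genes summed to 3076 to 9167 CPM in these formalin libraries, against 64 to 808 CPM in BNST controls, ependymal genes to 264 to 281 CPM in formalin libraries against 85.2 to 179 CPM in BNST controls, and fibroblast genes to 67.1 to 110.5 CPM in formalin libraries against 44.3 to 64.3 CPM in BNST controls, with no gene of these lists called by edgeR. Their part in the result was not tested.

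In the mPFC, formalin gave the opposite sign. There 35 of the 37 genes had a lower mean than in controls (median log2 fold change −0.32, against 0.00 over all genes), 13 had an unadjusted p under 0.05, all lower (14.1% of all genes had one in either direction), and 13 lay below every control without overlap, where 13.1% of all genes tested did, and none lay above, where 13% did. The edgeR test called 0 genes, where 0.269% of all genes were called (0.0632% higher and 0.205% lower), and limma-voom 0, where it called 0.19% of all genes lower. DESeq2 called 4 lower, Hapln2, Mag, Fa2h and Myrf, where it called 0.68% of the genes it gave an adjusted p. Hapln2 gave the lowest adjusted p of the 37, 0.0633, with 6.49, 7.49 and 8.08 CPM in formalin mice against 10.5, 12.1 and 17.9 CPM in controls (−0.88 ± 0.21). Mag (63.8, 51.0 and 70.1 CPM in formalin mice against 87.7, 81.7 and 117 CPM in controls, adjusted p = 0.122) and Fa2h (13.6, 11.7 and 16.4 CPM in formalin mice against 17.97, 18.6 and 26.7 CPM in controls, adjusted p = 0.136) were also below every control. The mPFC comparisons of CFA and of formalin share their 3 controls, with mPFC control replicate 3 the highest. Sums of other cell types also stood apart after formalin in the mPFC, with no gene of these lists called by edgeR. Microglial genes summed to 500.1 to 543 CPM in formalin libraries against 397 to 480 CPM in controls, endothelial genes to 118 to 162 CPM in formalin libraries against 169.7 to 214 CPM in controls, and astrocyte genes to 6039 to 6536 CPM in formalin libraries against 5573 to 6021 CPM in controls. Their part in the result was not tested.

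CFA and formalin mice were also compared directly, within the same model of 18 libraries. The controls were not part of the contrast but entered the filter, the scaling and the estimate of spread. In the BNST, 2 genes were called higher in CFA mice and 5 lower, where 6.87% of all genes were called (2.96% higher and 3.91% lower), and the median log2 fold change was −0.27. In 3 genes every CFA library lay above every formalin library and in 18 below, shares that were 17.8% and 14.3% over all genes. Opalin differed most, with 13.4, 19.4 and 11.2 CPM in CFA mice against 51.3, 37.7 and 41.0 CPM in formalin mice (−1.56 ± 0.29, adjusted p = 0.00337). Pllp (12.7, 11.9 and 10.8 CPM in CFA mice against 21.7, 22.5 and 25.3 CPM in formalin mice) had the lowest adjusted p of the 37, 0.000569, at −0.98 ± 0.15. Gamt (7.06, 8.97 and 9.30 CPM in CFA mice against 14.8, 13.6 and 16.4 CPM in formalin mice) gave −0.82 ± 0.18 with an adjusted p of 0.00556.

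Mog (−0.66 ± 0.20, adjusted p = 0.0366) and Fa2h (−0.55 ± 0.17, adjusted p = 0.0356) were the other genes lower in CFA mice. Apod (316, 353 and 287 CPM in CFA mice against 184, 156 and 166 CPM in formalin mice, 0.92 ± 0.24, adjusted p = 0.0199) and Hapln2 (69.9, 60.8 and 60.6 CPM in CFA mice against 40.7, 37.8 and 36.96 CPM in formalin mice, 0.73 ± 0.19, adjusted p = 0.0167) were higher. In none of these 7 genes did the groups overlap. The count was 3 without BNST CFA replicate 1 and 4 without BNST formalin replicate 2, and Opalin, Pllp and Gamt kept their calls under every omission. Striatal genes summed to 345 to 769 CPM in these CFA libraries against 1433 to 2015 CPM after formalin. Habenular genes summed to 87.2 to 171 CPM in CFA libraries against 26.7 to 35.9 CPM after formalin. Pericyte and glucocorticoid-responsive sums also stood apart, while choroid plexus, ependymal, fibroblast, astrocyte, microglial and endothelial sums overlapped. Their part in the result was not tested.

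In the mPFC the direct comparison called Hapln2 higher and Opalin lower in CFA mice, where 0.932% of all genes were called (0.558% higher and 0.374% lower). In 2 genes the CFA libraries lay above every formalin library and in 9 below, shares that were 14.6% and 13.7% over all genes. Hapln2 had 23.3, 15.7 and 21.1 CPM in CFA mice against 6.49, 7.49 and 8.08 CPM in formalin mice (1.45 ± 0.21, adjusted p = 0.0029), and that call held under all 18 omissions. Opalin had 3.07, 2.18 and 4.63 CPM in CFA mice against 9.46, 6.19 and 11.6 CPM in formalin mice (−1.46 ± 0.34, adjusted p = 0.0418), a call lost in 9 of 18 omissions. Pllp (−0.64 ± 0.16, adjusted p = 0.05) and Gamt (−0.76 ± 0.19, adjusted p = 0.0503) lay below every formalin library and were not called.

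Next, the change after CFA was compared between the regions with an interaction term. For 9 of the 37 genes it was called more positive in the BNST than in the mPFC and for none less, where 4.17% of all genes were called, 1.15% more positive and 3.02% less. They were Ermn, Gjb1 (connexin 32, a gap junction protein), Bcas1 (a marker of premyelinating oligodendrocytes), Ppp1r14a (an inhibitor of myosin phosphatase), Car2, Ndrg1, Plekhb1, Ugt8a and Gpr37 (an orphan receptor of oligodendrocytes), with differences in log2 fold change of 0.74 to 1.21. CFA replicates 1 to 3 and 2 of the 3 controls came from the same animals in both regions. With the animal as a block 7 genes were called, where 0.642% of all genes were called more positive, and 3 of the 9 (Gjb1, Gpr37 and Ugt8a) were among them. For the other 6, Ppp1r14a included (adjusted p = 0.0627), the adjusted p in that fit was 0.0544 to 0.167. Without the block the count moved between 1, without mPFC control replicate 3 or mPFC CFA replicate 2, and 17, without BNST control replicate 1. Opalin (0.87 ± 0.44, adjusted p = 0.293), Pllp (0.34 ± 0.22, adjusted p = 0.417) and Gamt (0.07 ± 0.25, adjusted p = 0.918) did not pass that test. For formalin, edgeR called 0 genes, where 0.158% of all genes were called (0.0474% more positive and 0.111% less), although 23 of the 37 had an unadjusted p under 0.05, all more positive in the BNST, where 14.6% of all genes had one in either direction. DESeq2 called 15 more positive, where it called 1.37% of the genes it gave an adjusted p, and limma-voom 1, where it called 0.0632%.

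To describe the genes against each other, each gene's log2 CPM was set against the mean of the other genes among 24 of mature oligodendrocytes in the same library, a measure chosen after the data were seen and given without a test. Since the scale is the members' own mean, some genes must lie on each side. In the BNST, 11 of the 37 genes had a relative level above that of every control in all CFA libraries, where 4.23% of all genes did, and 11 below, where 9.88% of all genes did. In the mPFC, 7 lay below, where 0.353% of all genes did, and 15 above, where 63.9% of all genes did. The mean of the mature genes was itself lower in the mPFC CFA libraries than in controls, which moves both shares, so neither count is read against its share, here or in the comparisons that follow.

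For 15 genes the relative level lay on the same side of the controls in both regions. The share of all genes doing so was not computed, so the 15 are not read as a shared pattern. Apod, Car2, Cryab, Ermn, Hapln2, Mbp, Myrf, Ndrg1 and Plekhb1 were above the controls in both, and Cldn11, Enpp6, Fa2h, Mag, Mog and Opalin below. The relative level of Opalin differed from controls by −1.26 in BNST libraries and −1.35 in mPFC libraries on the log2 scale, and that of Mog by −0.37 (BNST) and −0.42 (mPFC). Plekhb1 differed by 0.67 (BNST) and 0.63 (mPFC) and Ndrg1 by 0.65 (BNST) and 0.60 (mPFC). The differences were 0.36 (BNST) and 0.19 (mPFC) for Mbp, 0.91 (BNST) and 1.26 (mPFC) for Hapln2, and 1.35 (BNST) and 1.03 (mPFC) for Apod. The regions came from the same mice in the CFA group, so these are not independent samples.

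After formalin fewer genes had a relative level apart from the controls. In the BNST Apod, Car2 and Mbp lay above every control (1.87% of all genes did) and 5 genes below (42% of all genes did), and in the mPFC Fa2h, Mag and Myrf lay below (0.584% of all genes did) and 9 genes above (39.4% of all genes did). Set directly against formalin, the CFA libraries of the BNST lay above for 12 genes (38.2% of all genes did) and below for 10 (3.36% did), and those of the mPFC above for 10 (10.1% did) and below for 7 (1.53% did). Opalin, Mog, Enpp6 and Aspa were among the lower genes in both regions.

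**Figure D5:**
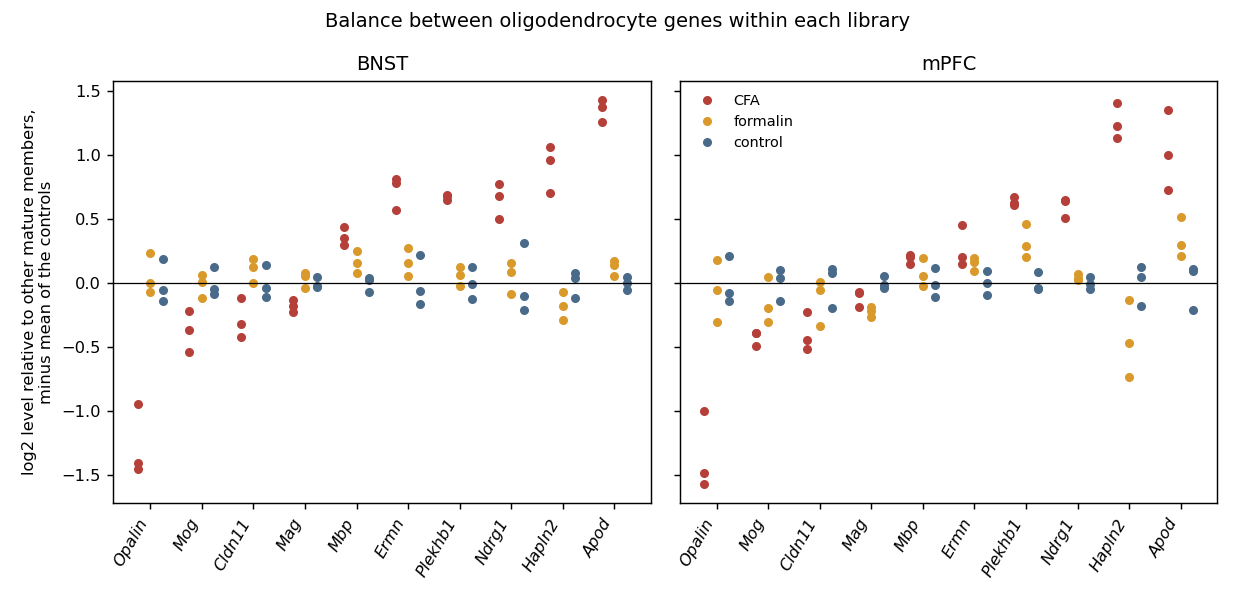
Log2 level of 10 genes relative to the mean of the other mature oligodendrocyte genes in the same library, minus the mean of the controls, for CFA, formalin and control libraries of the BNST (left) and the mPFC (right). In both regions the CFA points of Opalin, Mog, Cldn11 and Mag lie below the control points, and those of Mbp, Ermn, Plekhb1, Ndrg1, Hapln2 and Apod above.

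Over the 18 libraries the edgeR test called none of the transcription factors of the lineage in any comparison within a region. With the 9 libraries of the mPFC alone it called Nkx6-2 lower after CFA than in controls (−0.68, adjusted p = 0.0395), Myrf lower after formalin than in controls (−0.73, adjusted p = 0.00388) and Myrf higher in CFA than in formalin mice (0.56, adjusted p = 0.0108). With lane 2 only, it called Myrf higher in the BNST after CFA, as given above, and after formalin (0.72, adjusted p = 0.0401), and gave the same mPFC calls of Myrf. DESeq2 called Myrf after formalin in the mPFC. For the 5 of them (Sox10, Olig1, Olig2, Myrf and Nkx6-2) BNST log2 fold changes, CFA over control, were between 0.12 and 0.44, and those of the mPFC between −0.67 and 0.13. An unadjusted p under 0.05 was found for 1 of the 5 in the BNST and 2 in the mPFC, where 36.5% of all genes had one in the BNST and 13.8% in the mPFC, and limma-voom called none in any of these comparisons. Sox10, which drives the whole oligodendrocyte programme, had 63.1, 53.7 and 53.2 CPM in the BNST of CFA mice, 63.6, 61.7 and 65.4 CPM after formalin and 62.2, 41.7 and 44.0 CPM in controls. Its mPFC values were 22.6, 19.4 and 24.8 CPM after CFA, 22.6, 22.0 and 24.4 CPM after formalin and 25.8, 26.4 and 30.6 CPM in controls, so in the mPFC both injected groups lay below the controls without overlap, with adjusted p of 0.301 after CFA and 0.379 after formalin.

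Olig2, which specifies the lineage, overlapped between the groups throughout. It had 54.6, 41.2 and 49.0 CPM in the BNST after CFA, 37.5, 41.3 and 50.4 CPM after formalin and 50.6, 37.6 and 38.8 CPM in controls. In the mPFC it had 27.4, 21.3 and 30.3 CPM after CFA, 19.9, 25.8 and 25.1 CPM after formalin and 25.2, 23.7 and 31.7 CPM in controls. The adjusted p of its 6 comparisons within a region ran from 0.43 to 0.972.

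The precursor genes Pdgfra and Cspg4 were called in no comparison within a region by edgeR, DESeq2 or limma-voom. Pdgfra, the growth factor receptor of precursors, had 78.6, 89.7 and 74.8 CPM in the BNST after CFA, 81.5, 83.5 and 83.8 CPM after formalin and 74.0, 70.4 and 86.6 CPM in controls. In the mPFC it had 60.2, 60.2 and 64.8 CPM after CFA, 72.7, 67.2 and 69.1 CPM after formalin and 56.1, 62.7 and 74.4 CPM in controls. Its log2 fold change over control was 0.07 ± 0.10 after CFA and 0.11 ± 0.10 after formalin in the BNST. For the mPFC the values were −0.06 ± 0.10 after CFA and 0.11 ± 0.10 after formalin.

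Cspg4 had 25.5, 22.7 and 27.4 CPM in the BNST after CFA, 29.8, 32.7 and 35.0 CPM after formalin and 34.1, 26.2 and 34.8 CPM in controls. The CFA libraries were below every formalin library (−0.37 ± 0.12, adjusted p = 0.0456), a difference under the fold minimum. Its mPFC values were 27.8, 26.0 and 28.8 CPM after CFA, 25.9, 32.3 and 29.0 CPM after formalin and 28.1, 31.1 and 35.8 CPM in controls. Gpr17 in the BNST (−0.46 ± 0.13, CFA over control, adjusted p = 0.0172) also missed only the fold minimum. Enpp6, of newly forming oligodendrocytes, had the second steepest mPFC difference, with 1.60, 0.926 and 4.31 CPM after CFA against 5.36, 6.72 and 11.9 CPM in controls (−1.81 ± 0.40, adjusted p = 0.0532). The edgeR test over the 18 libraries did not call it, while edgeR with the stricter filter (adjusted p = 0.0449), DESeq2 (adjusted p = 0.000141) and limma-voom (adjusted p = 0.0387) did.

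Other genes of the same lineage were counted for comparison. Over all genes tested, CFA over control called 4.89% higher and 7.06% lower in the BNST. In the mPFC it called 0.337% higher and 0.295% lower. Of 43 more oligodendrocyte genes tested, CFA over control in the BNST called 6 higher (Ptgds, Anln, Il33, Edil3, Evi2a and Dock5) and none lower, and in the mPFC it called none higher and 3 lower (Mcam, Prr5l and Adamts4). The median log2 fold change of the 43 was 0.15 for BNST libraries and −0.24 for mPFC libraries. Of 16 more precursor genes, 1 (Emid1) was called lower after CFA in the BNST and 0 in the mPFC, with medians of 0.00 in the BNST and −0.15 in the mPFC. That 1 lower call was near the share over all genes.

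Markers of other cell types and neighbouring regions were also counted for CFA over control. Over all genes tested, 4.89% were called higher and 7.06% lower in the BNST, and 0.337% higher and 0.295% lower in the mPFC. Of 11 striatal genes, 10 were called lower after CFA in the BNST. Their summed level there was 345 to 769 CPM in CFA libraries against 1692 to 3921 CPM in controls. Of 7 habenular genes, 5 were called higher in the BNST, with 87.2 to 171 CPM in CFA mice against 29.5 to 55.9 CPM in controls. In BNST control replicates 1 and 3, 2 of the 7 were at 0. Of 12 choroid plexus genes 1 was called higher in the BNST. Of 14 glucocorticoid-responsive genes, 11 were called higher in the BNST and 6 in the mPFC after CFA, with sums of 877 to 1264 CPM in CFA mice against 512 to 567 CPM in BNST controls and 844 to 952 CPM in CFA mice against 638 to 659 CPM in mPFC controls. The part of these in the oligodendrocyte results was not tested.

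Markers of vessels and glia were counted in the same way. Of 10 pericyte genes, 3 were called lower after CFA in the BNST (summed level 95.2 to 113 CPM in CFA mice against 112 to 155 CPM in controls) and 2 in the mPFC (139.6 to 149 CPM in CFA mice against 170.5 to 218 CPM in controls). Of 10 endothelial genes 1 was called lower in the mPFC after CFA (118 to 129 CPM in CFA mice against 169.7 to 214 CPM in controls). Of 11 astrocyte genes 2 were called higher in the BNST, and their sum was 5091 to 5687 CPM in CFA libraries against 4127 to 5553 CPM in controls. In the mPFC none of the 11 was called after CFA, and their sum was 6054 to 7093 CPM in CFA libraries against 5573 to 6021 CPM in controls, without overlap. Of 13 microglial genes, 1 was called lower in the BNST, near the share over all genes. Their part in the oligodendrocyte results was not tested either.

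Some exons were shared with other genes. Of the Pllp exons, 54.2% were shared with Gm45767, a gene on the opposite strand with 25 to 125 counts per library, against 69 to 595 counts of Pllp. Of Nkx6-2, 12.9% was shared with Inpp5a, and of Bcas1, 12.6% with antisense genes. Without a stated strand setting, reads of such pairs cannot be told apart.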

How the data were processed

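Reads were trimmed by the authors with Trimmomatic 0.39, aligned to GRCm38 with HISAT2 2.2.1 and counted per gene with featureCounts 2.0.1, and the deposited values are raw counts per gene, without normalization. The files pair no symbols with identifiers, so symbols, positions and exon lengths came from GENCODE M21. The strand setting of the counting is not given in the sources used here. The counts were tested with edgeR 4.0.16 under R 4.3.3 (TMM, filterByExpr over the 6 groups with a minimum count of 10 and a minimum total of 15, quasi-likelihood test with robust dispersion, 18 libraries in 1 model, 12 residual degrees of freedom). A gene was called at a Benjamini-Hochberg adjusted p under 0.05 over 18994 genes and an absolute log2 fold change above 0.5. CPM used TMM-adjusted library sizes, log2 CPM a prior count of 2, and TPM the union exon length. Replicates of a group differed beyond sampling noise (chi-square per degree of freedom 3.64 to 75.0).

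Every gene is accounted for. Values in each library are given for the 12 genes with the smallest adjusted p among the 13 called within a region, and for Mbp, Mog, Mag, Sox10, Olig2, Pdgfra and Cspg4, and for Enpp6, which was added after its values were seen. The genes and lists were chosen with earlier results of these data known. A gene of the comparison lists was left out after its values were seen and is not reported here. Lanes and animal numbers came from column headers of the supplementary tables, joined to libraries by equal counts. Alternatives were DESeq2 1.42.0, limma-voom (limma 3.58.1), RLE factors, other filters, the 9 libraries of a region, lane 2 only, the replicate or animal number as a block, no fold minimum, and leaving out each library. Scripts were tested on simulated data drawn with the spread that edgeR estimated from these libraries. For CFA over control, edgeR recovered 57.6% (BNST) and 60.6% (mPFC) of genes given a log2 change of 1 in size. A gene not called can therefore still differ. False calls numbered 3 (BNST) and 7 (mPFC) by edgeR, 15 (BNST) and 19 (mPFC) by DESeq2, and 4 (BNST) and 6 (mPFC) by limma-voom.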

Additional observations from a re-analysis of the deposited data

Results flagged for a closer look

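The difference between the regions in the change after CFA, BNST minus mPFC, passed the interaction test for 9 genes. On the log2 scale it was 1.21 for Ermn, 1.14 for Gjb1, 1.10 for Bcas1, 1.07 for Ppp1r14a, 0.93 for Car2, 0.81 for Ndrg1, 0.80 for Plekhb1, 0.78 for Ugt8a and 0.74 for Gpr37. Ppp1r14a kept its call in all 18 fits that left out 1 library, with an adjusted p of at most 0.0423 by edgeR. The others lost theirs in 4 to 13 of the 18, and mPFC control replicate 3 and mPFC CFA replicate 2 were among the libraries in every case. With the animal number as a block, Gjb1, Gpr37 and Ugt8a were called, and the adjusted p of Ppp1r14a was 0.0627.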

How the results depend on the processing

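Over the alternatives, 35 calls of single genes were followed, 0 changed sign and 9 were kept under every setting. The number of genes called was 7 by DESeq2 and 2 by limma-voom for formalin over control in the BNST, and 0 without a filter or with the 9 libraries of the region. For CFA over formalin in the BNST it was 11 by DESeq2 and 3 without a filter, and for CFA over control in the BNST it was 6 with lane 2 only. In the mPFC, CFA over control gave 14 by DESeq2, formalin over control 4 by DESeq2, 4 with the 9 libraries of the region and 2 with lane 2 only, and CFA over formalin 6 by DESeq2, 1 by limma-voom, 4 with RLE factors, 4 with the stricter filter, 5 with the 9 libraries and 5 with lane 2 only. The region difference of the CFA change gave 2 without a filter, and that of the formalin change 15 by DESeq2, 1 by limma-voom, 1 without a filter, 4 with lane 2 only, 3 with the replicate block and 1 with the animal block. For most of these fits the share of all genes called is not given here, so the counts are not read against a background. The cause of these shifts was not tested.

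Leaving out 1 library gave 9 to 11 genes for CFA over control, 0 to 4 for formalin over control and 3 to 9 for CFA over formalin in the BNST. In the mPFC it gave 0 to 7 for CFA over control, 0 to 2 for formalin over control and 1 to 5 for CFA over formalin. It gave 31 to 34 for BNST over mPFC, and for the region differences 1 to 17 after CFA and 0 to 8 after formalin. The share of all genes called in each of these fits is not given, so the counts show only how far the calls depend on single libraries. A lone sample left in an arm was assumed to vary like the other groups.

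For CFA and formalin libraries the replicate number was the animal number, which paired the regions. Across treatments the same number stood for different mice. Residual correlations of libraries with the same number and region ran from −0.19 to 0.31, above 0.1 in 4 of 18 pairs. Between regions of the same animal they ran from −0.03 to 0.17, above 0.1 in 2 of 8. With so few libraries per group, low values cannot show that pairing is absent. With the replicate block, CFA over control called the same 10 genes in the BNST, and 6 in the mPFC, where Gamt was lost (adjusted p = 0.0606) and Enpp6 gained (adjusted p = 0.0363).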
